A study of Homo sapiens with 8 samples.

Results

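The genes described here are 8 that set cellular polyamine levels: the enzymes ODC1, AMD1, SRM and SMS, the antizymes OAZ1 and OAZ2, the antizyme inhibitor AZIN1 and the acetyltransferase SAT1. They were found by matching the Ensembl identifiers of the count tables to these symbols, which gave 1 identifier per gene, 8 of the 58395 genes listed. All 8 passed the filter on low counts that left 16503 genes for testing. The polyamines putrescine, spermidine and spermine are small cations that bind RNA and ribosomes, and spermidine is also the donor for hypusine, the modified residue of the translation factor eIF5A. The pathway is known as a case of feedback through translation. High polyamine levels make ribosomes shift frame on antizyme mRNAs, and antizyme then takes ornithine decarboxylase to the proteasome, while upstream reading frames hold back translation of AMD1 and AZIN1 mRNAs.

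Transcript levels were measured in OCI-AML3, an established human acute myeloid leukaemia line, infected with a control hairpin or with a hairpin against FBL, the gene of the nucleolar rRNA methyltransferase fibrillarin. All cells had received cycloheximide (100 µg/mL, 15 min), which stalls elongating ribosomes on mRNA. From each lysate, input RNA was sequenced beside RNA from polysome fractions of a sucrose gradient. The sources used here do not say which gradient fractions were taken as polysomes. The 4 groups hold 2 libraries each: input control and polysome control, with the genotype label WT, and input knockdown and polysome knockdown, with the genotype label FBL knockdown. Clones, separate infections and separate cultures are not named in the labels, so p-values measure only the spread between these libraries. How much of that spread is technical is not known. The main fit has no term for the library number, so the spread also holds the differences between numbers 1 and 2 given below.

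Total gene counts ran from 22.2 M (polysome knockdown 2; M for mega-counts) to 43.1 M (input knockdown 2). The counts of the targeted gene go against the labels. FBL stood at 250 and 88.1 CPM (counts per mega-count of the library) in input control 1 and 2 and at 252.7 and 84.2 CPM in input knockdown 1 and 2. In polysome RNA it stood at 497.8 and 163 CPM in control and at 498.6 and 165 CPM in knockdown. FBL was therefore no lower in the libraries labelled knockdown, and every direction drawn from the label below is between libraries labelled so. Reads were found for 8 of 8 myeloid markers, whose summed level was 1062 to 1348 CPM in input and 1478 to 1758 CPM in polysome libraries, with MPO at most at 3.72 CPM and ITGAM at 4.43 CPM. The erythroid marker ALAS2, the T-cell markers CD3E and CD3D, the B-cell marker MS4A1 and the epithelial marker EPCAM were at 0 in all 8 libraries. The part of these markers in any result was not tested.

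Polysome RNA was first compared with input RNA, which shows how much of a transcript sat in the polysome fractions, always relative to the rest of the transcripts in a library. Antizyme mRNAs were richer in polysome than in input RNA, and the mRNAs of SAT1, AZIN1, AMD1, SRM and SMS were poorer. As the mean of both labels, 2 of the 8 genes were called higher, 5 lower and ODC1 neither, at an adjusted p under 0.05 (edgeR, quasi-likelihood F test). Of all tested genes, 42.9% were called in this comparison, 20% higher and 22.8% lower. Among the 8159 genes averaging 10 CPM or more, as all 8 do, 38.1% were called higher and 27.7% lower. The 8 genes had a median log2 fold change of -0.27, all tested genes of -0.22 and those averaging 10 CPM or more of 0.10. The 4 polysome libraries lay wholly above the 4 input libraries for 2 of the 8 genes and wholly below for 4, against 17.7% and 22.7% of all tested genes.

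OAZ1 encodes antizyme 1, the main antizyme of most cells, and lies at chr19:2269509-2273490 (GRCh38, plus strand). Its level was 610.3, 731.9, 753.1 and 850.8 CPM in input control 1 and 2 and input knockdown 1 and 2. In polysome RNA it was 1271, 1465, 1313 and 1246 CPM in the same order. Every polysome library lay above every input library. The log2 fold change was 0.85 (SE 0.08, edgeR adjusted p = 2.2e-05), a level 1.80 times that of input, and 87.0% of the 8159 genes averaging 10 CPM or more had a lower one. OAZ1 shares 6.87% of its exonic bases with JSRP1 on the other strand and 6.40% with a further gene on its own, and since the strand setting of the counting is not given, reads there cannot be assigned with certainty.

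OAZ2 encodes antizyme 2 and lies at chr15:64687573-64703281 (minus strand). It stood at 90.9, 100.1, 97.0 and 99.4 CPM in the input libraries, again in the order control 1 and 2, knockdown 1 and 2, and at 132.5, 140.7, 115.1 and 119 CPM in polysome RNA. The fractions did not overlap, and both polysome control libraries stood above both polysome knockdown libraries. Polysome over input RNA, the log2 fold change was 0.38 (SE 0.08, edgeR adjusted p = 0.0024). An antisense gene shares 7.22% of its exonic bases. The third antizyme gene, OAZ3, best known from testis, was near the limit of detection at 1.65 ± 0.42 CPM in input and 0.93 ± 0.16 CPM in polysome RNA (SD, n = 4 libraries of both labels), with a log2 fold change of -0.80 (SE 0.58, edgeR adjusted p = 0.305).

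Both antizyme mRNAs that were richer in polysomes carry the site at which the ribosome must shift by +1 to read on. It is shown for the 3 antizyme genes as 30 bases of the coding strand, from the GENCODE v29 transcripts on GRCh38. The annotation writes the shift as a gap of 1 base in the coding sequence, and the capitals mark the stop codon that holds this base and closes the first frame.
OAZ1, chr19:2271428-2271457 (plus strand): cctcggtggtgctccTGAtgcccctcaccc
OAZ2, chr15:64691501-64691530 (minus strand): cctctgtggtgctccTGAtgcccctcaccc
OAZ3, chr1:151767209-151767238 (plus strand): tgcctccagtgctccTGAgtccctagtagg
The windows of OAZ1 and OAZ2 matched at 29 of 30 bases, with the single substitution G5T (the OAZ1 base, the position counted from 1 at the 5′ end, the OAZ2 base). The OAZ3 window matched that of OAZ1 at 14 and that of OAZ2 at 15 bases, the stop codon included. Gene counts hold no reading frame, so how often ribosomes shifted at these sites was not analysed here.

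AZIN1 encodes a relative of ornithine decarboxylase without enzyme activity that binds antizymes and so frees the enzyme. It lies at chr8:102826357-102893864 (minus strand). Its input levels were 104.5, 101.9, 127.5 and 109.6 CPM in control 1 and 2 and knockdown 1 and 2, and its polysome levels were 79.2, 73.7, 80.0 and 48.9 CPM. All polysome libraries lay below all input libraries, with polysome knockdown 2, the library with the fewest counts, the lowest. This gave a log2 fold change of -0.65 (SE 0.14, edgeR adjusted p = 0.0038). The antisense gene MAILR shares 5.35% of its exonic bases. The other antizyme inhibitor, AZIN2, was at 1.74 ± 0.84 CPM in input and 2.16 ± 1.95 CPM in polysome RNA (SD, n = 4) and was not called (log2 fold change 0.32, SE 0.98, edgeR adjusted p = 0.825).

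ODC1 encodes ornithine decarboxylase, which makes putrescine in the first committed step of the pathway, and lies at chr2:10439968-10448504 (minus strand). It stood at 37.3, 32.3, 24.8 and 19.5 CPM in input control 1 and 2 and input knockdown 1 and 2, and at 34.9, 26.1, 25.2 and 13.5 CPM in the matching polysome libraries. The fractions overlapped, and in each of them the libraries labelled control were the higher. The log2 fold change between polysome and input RNA was -0.19 (SE 0.20, 95% interval -0.64 to 0.26, edgeR adjusted p = 0.488). Without polysome knockdown 1 it was -0.46 (edgeR adjusted p = 0.044), and in no other alternative was ODC1 called.

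AMD1 encodes S-adenosylmethionine decarboxylase, which supplies the aminopropyl groups for both synthases, and lies at chr6:110874770-110895713 (plus strand). Its levels were 88.6, 87.6, 74.2 and 81.3 CPM in input RNA and 66.6, 54.4, 55.9 and 48.9 CPM in polysome RNA, in the order control 1 and 2, knockdown 1 and 2. The fractions did not overlap. The log2 fold change was -0.56 (SE 0.10, edgeR adjusted p = 0.0014).

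SRM encodes spermidine synthase and lies at chr1:11054584-11060024 (minus strand). Its input levels were 482.2, 424.5, 408.6 and 384.6 CPM and its polysome levels 391.1, 362.7, 327.4 and 285.3 CPM, in that same order. Each polysome library was below its own input library, although polysome control 1 exceeded input knockdown 2. Its log2 fold change was -0.32 (SE 0.08, edgeR adjusted p = 0.0071).

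SMS encodes spermine synthase and lies at chrX:21940573-21994835 (plus strand). It stood at 183.3, 168.1, 177 and 155.6 CPM in input RNA and at 155.2, 146.8, 145.7 and 136 CPM in polysome RNA. The fractions touched without overlapping, with polysome control 1 just under input knockdown 2. The log2 fold change was -0.23 (SE 0.08, edgeR adjusted p = 0.039), and this call was lost on leaving out 5 of the 8 libraries in turn (input control 1, input knockdown 1, polysome control 1, polysome control 2 or polysome knockdown 2), at edgeR adjusted p from 0.058 to 0.115.

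SAT1 encodes spermidine/spermine acetyltransferase, which marks polyamines for export or oxidation and whose translation is itself known to respond to polyamines. It lies at chrX:23783173-23786226 (plus strand). Its levels were 45.0, 59.0, 56.8 and 68.3 CPM in input RNA and 19.0, 22.1, 26.2 and 22.4 CPM in polysome RNA, in the order control 1 and 2, knockdown 1 and 2. The gap between the fractions was wide: the highest polysome library stood well under the lowest input library. SAT1 had a log2 fold change of -1.35 (SE 0.14, edgeR adjusted p = 3.1e-05), a level 2.55-fold lower, and 4.09% of the 8159 genes averaging 10 CPM or more had a lower fold change.

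**Figure D1:**
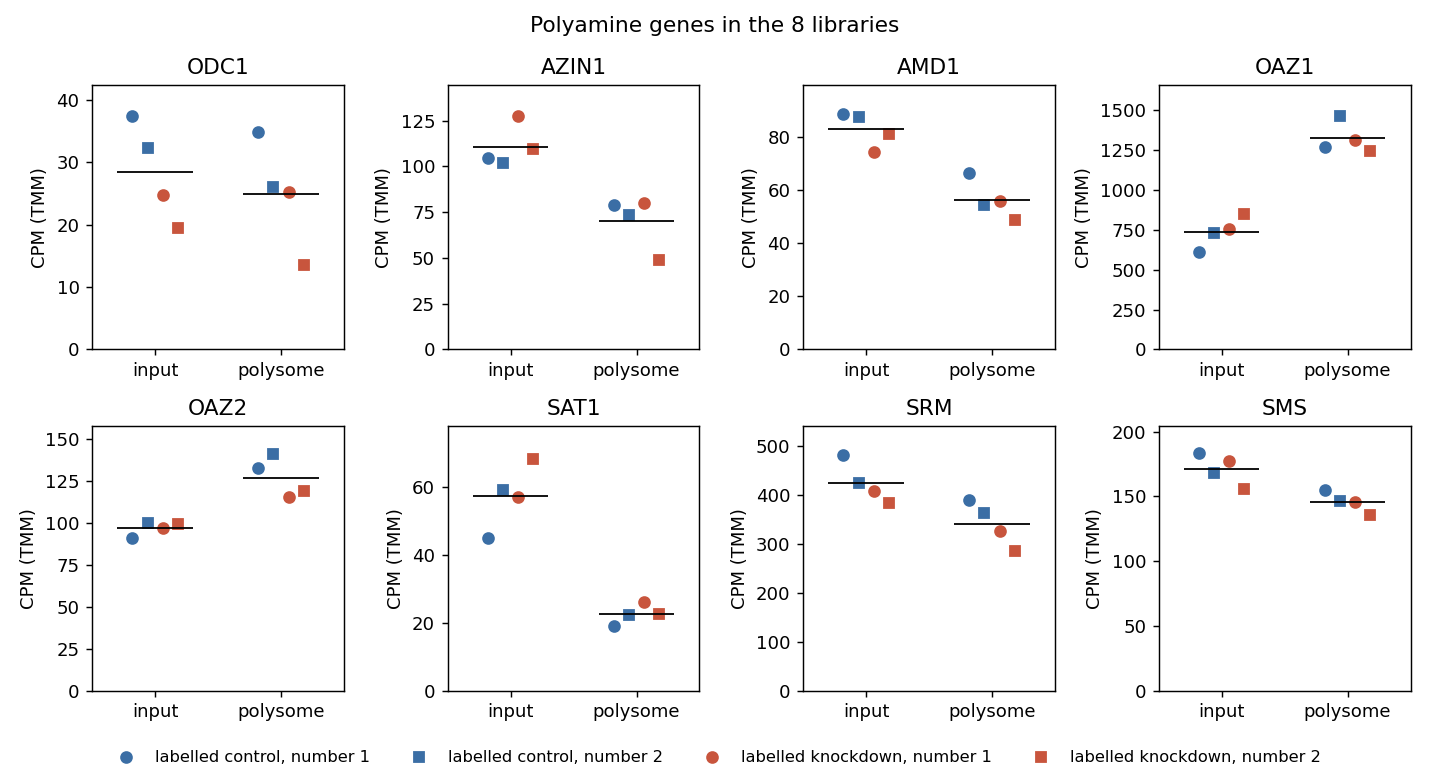
CPM after TMM scaling (y axis, from 0) in input and polysome RNA (x axis) for the 8 genes. Points are single libraries, blue for labelled control and red for labelled knockdown, circles for number 1 and squares for number 2; the bar is the mean of the 4 libraries of a fraction. OAZ1 and OAZ2 lie higher in polysome RNA and SAT1 lower without overlap, while the ODC1 points of the fractions overlap.

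The mRNAs also differ in what precedes the main reading frame. In the principal GENCODE v29 transcript, the leader held 6 upstream ATG codons in AZIN1 (1164 bases), 2 in ODC1 (511 bases), 2 in OAZ2 (233 bases), 2 in SAT1 (179 bases), 1 in AMD1 (336 bases), 1 in SMS (252 bases) and 0 in OAZ1 (79 bases) and SRM (81 bases). Of 17955 genes with such a transcript, 55% had at least 1 upstream ATG, and the median leader was 199 bases long. Of the members with 0, OAZ1 was richer in polysome RNA and SRM poorer. Of those with at least 1, OAZ2 was richer, AZIN1, AMD1, SAT1 and SMS were poorer, and ODC1 was not called. With the centred offsets for GC content and length described below, the calls of AZIN1, AMD1 and SMS were lost, and AMD1 and SMS changed sign. The 2 upstream ATG codons of OAZ2 share a stop codon. Whether the count bears on the polysome ratio was not tested. The most 5′ upstream frames of AMD1, ODC1 and SAT1 are shown as short complete frames, with the start and stop codons in capitals, 5′ to 3′ on the coding strand. The AMD1 frame ends 289 bases before the main start, the ODC1 frame 357 bases and the SAT1 frame 102 bases before it. AZIN1 has short frames as well, of 24 and 30 bases, which are not shown. Whether either is a frame known to hold back its translation was not examined. The frame of 24 bases is the end of a frame of 156 bases. Only frames that open with ATG were searched for.
AMD1, chr6:110874796-110874816 (plus strand): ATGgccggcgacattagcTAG
ODC1, chr2:10448351-10448377 (minus strand): ATGgcgacccgccggtgctataagTAG
SAT1, chrX:23783235-23783249 (plus strand): ATGgtgccagccTGA
The AMD1 frame of 21 bases is the one known to stall ribosomes at its end when polyamines are high. The counts are per gene, so ribosomes on these frames and on the main frames were not told apart.

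The input and polysome libraries of a number and label came from a single lysate, so each gene also has 4 polysome to input ratios. OAZ1 had log2 ratios of 1.06 and 1.00 in control 1 and 2 and of 0.80 and 0.55 in knockdown 1 and 2. OAZ2 had 0.54 and 0.49 in control and 0.25 and 0.26 in knockdown, and AZIN1 had -0.40 and -0.47 in control and -0.67 and -1.17 in knockdown. In these 3 genes both lysates labelled control lay above both labelled knockdown, and in SRM they did so by 0.02, a gap that closed under relative log expression (RLE) scaling. The same order held for 29.6% of the genes averaging 10 CPM or more. SAT1 ratios ran from -1.61 to -1.12, those of AMD1 from -0.73 to -0.41, those of SRM from -0.43 to -0.23 and those of SMS from -0.28 to -0.19, with the labels overlapping in AMD1, SAT1 and SMS. ODC1 was the single gene with ratios on both sides of 0, from -0.53 to 0.02. SMS varied least over the lysates (SD 0.04) and AZIN1 most (SD 0.35, n = 4 lysates each).

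**Figure D2:**
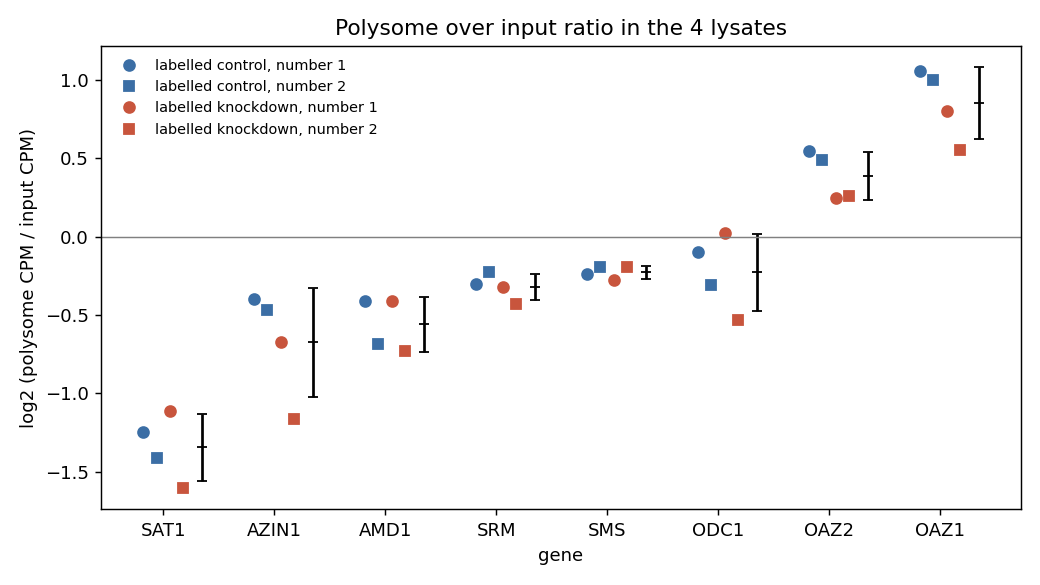
Log2 ratio of polysome to input CPM (y axis) in each of the 4 lysates for the 8 genes (x axis), with the mean and SD over the 4 lysates as a bar beside them; colours and shapes as for the CPM plot. OAZ1 and OAZ2 lie above 0 in 4 of 4 lysates, ODC1 straddles 0, and SAT1 lies lowest, between -1.61 and -1.12.

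Taken label by label, 4 of the 8 genes were called in the libraries labelled control (29.1% of all tested genes) and 5 in those labelled knockdown (28.5%). In control these were OAZ1 (log2 fold change 1.03, SE 0.12) and OAZ2 (0.52, SE 0.11) higher and SAT1 (-1.34, SE 0.19) and AMD1 (-0.54, SE 0.14) lower, at edgeR adjusted p from 1.4e-04 to 0.017. In knockdown these were OAZ1 (0.67, SE 0.12) higher and SAT1 (-1.36, SE 0.19), AZIN1 (-0.88, SE 0.20), AMD1 (-0.57, SE 0.14) and SRM (-0.37, SE 0.11) lower, at edgeR adjusted p from 6.6e-04 to 0.028. With the lysate as a block, AZIN1 (-0.43, edgeR adjusted p = 0.0087) and SRM (-0.27, edgeR adjusted p = 0.010) were also called in control. OAZ2 had 0.25 (SE 0.11, edgeR adjusted p = 0.112) in knockdown. Single libraries decided several of these calls. In control, OAZ2 was not called without input control 1 (0.37, edgeR adjusted p = 0.145) and AMD1 not without polysome control 2 (-0.41, edgeR adjusted p = 0.108). There AZIN1 was called without polysome knockdown 1 or 2 (-0.44 in each, edgeR adjusted p = 0.016 and 0.014), libraries that enter this comparison through the shared spread alone, and SRM without input control 2, polysome knockdown 1 or polysome knockdown 2 (-0.43 to -0.27). In knockdown, AMD1 was not called without input knockdown 2 (-0.49, edgeR adjusted p = 0.099) or polysome knockdown 2 (-0.48, edgeR adjusted p = 0.058), and SRM not without input knockdown 1, input knockdown 2 or polysome knockdown 2 (-0.41 to -0.28). A call under 1 label and not the other does not show a difference between them, which was tested separately below.

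Polysome to input ratios moved with base composition across all genes, and the members were placed against genes of like GC content. Among the 8159 genes averaging 10 CPM or more, the median log2 fold change climbed from -0.78 in the decile of genes with the lowest GC content of the longest transcript (27.8% to 38.9%) to 0.73 in the decile with the highest (62.1% to 74.2%). SRM, at 63.7% GC, was far under its neighbours: 2.33% of the genes of its decile had a lower fold change. SAT1, at 43.3%, was low in its decile too (6.75% lower). The others were within the middle 50% of their decile or at its edge: ODC1 at 51.2% GC (23.7% of its decile lower), AZIN1 at 42.3% (35.1%), SMS at 46.5% (46.9%), AMD1 at 37.7% (66.7%), OAZ1 at 61.2% (70.2%) and OAZ2 at 48.5% (75.3%). For OAZ1 the principal transcript has 54.0% GC, well under its longest transcript.

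A fit with centred offsets for GC content and exon length called 4 of the 8 genes in place of 7. It was chosen after seeing the data. The length joined the exons of all transcripts of a gene, 3436 bases for OAZ1 against 1148 in its principal transcript. OAZ1 (log2 fold change 0.31, SE 0.08, edgeR adjusted p = 0.010) and OAZ2 (0.35, SE 0.08, edgeR adjusted p = 0.0087) were still higher in polysome RNA. SAT1 (-0.75, SE 0.13, edgeR adjusted p = 0.0016) and SRM (-0.73, SE 0.09, edgeR adjusted p = 2.5e-04) were still lower. The calls of AZIN1 (-0.27, SE 0.13, edgeR adjusted p = 0.140), AMD1 (0.10, SE 0.10, edgeR adjusted p = 0.519) and SMS (0.21, SE 0.08, edgeR adjusted p = 0.084) were lost, and AMD1 and SMS changed sign. With the lysate also as a block, AZIN1 was called lower (-0.28, SE 0.09, edgeR adjusted p = 0.015) and SMS higher (0.21, SE 0.06, edgeR adjusted p = 0.019). Their calls thus depended on the treatment of composition and length, whereas the calls of OAZ1, OAZ2, SAT1 and SRM held in 19 of 19 alternatives. In the libraries labelled knockdown alone the call of OAZ1 was lost with the centred offsets (0.20, SE 0.11, edgeR adjusted p = 0.251). Whether the trend with GC content came from the cells or from library preparation was not tested.

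**Figure D3:**
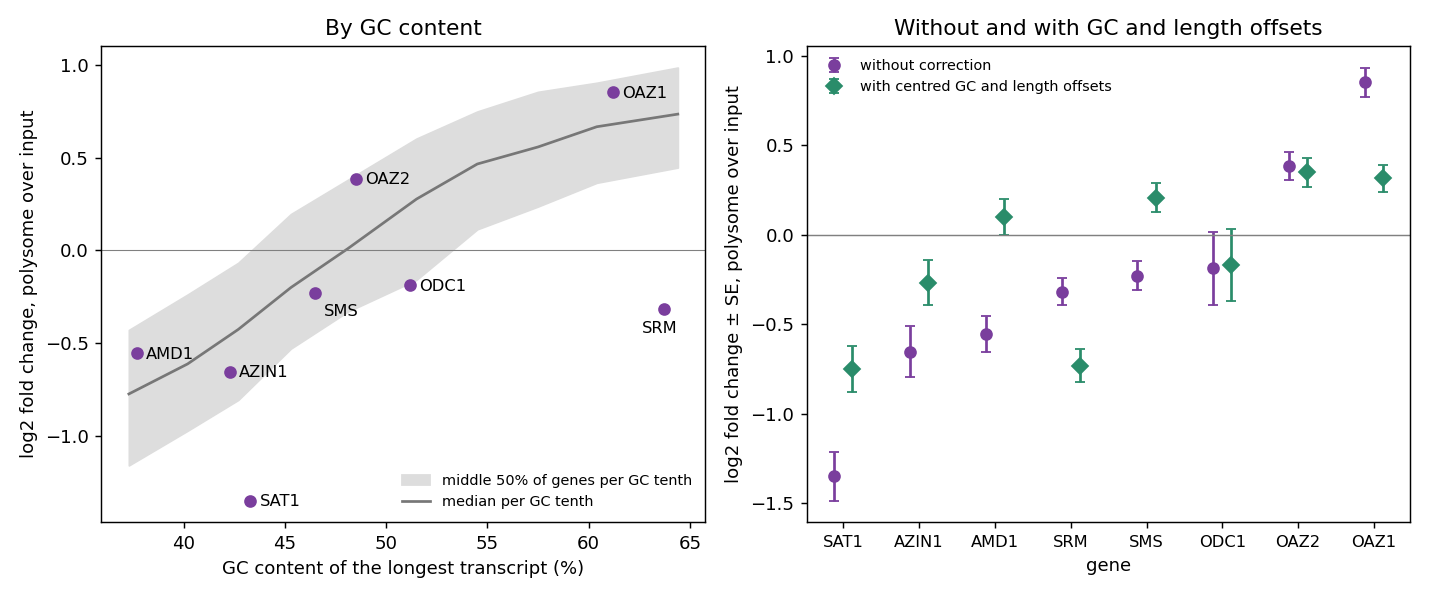
Left: log2 fold change of polysome over input RNA (y axis, mean of labels) against GC content of the longest transcript in percent (x axis), with the 8 genes as points and, for genes averaging 10 CPM or more, the median (line) and middle 50% (grey band) of each GC decile. Right: the same log2 fold change ± SE for each gene without correction (circles) and with centred GC and length offsets (diamonds). SRM (63.7% GC) and SAT1 (43.3%) lie under the band, ODC1 (51.2%) lies just under its lower edge, and AMD1 and SMS cross 0 with the offsets.

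Levels of different genes were compared as CPM per kilobase of exon. In input RNA, SRM (224 ± 21.9) and OAZ1 (214 ± 28.8) were the most abundant and overlapped, followed by SMS (79.2 ± 5.56), SAT1 (22.9 ± 3.84), AZIN1 (17.3 ± 1.79), OAZ2 (12.6 ± 0.55), AMD1 (11.8 ± 0.94) and ODC1 (9.60 ± 2.66; SD, n = 4 libraries of both labels). The ranges of SAT1 and AZIN1 overlapped, and those of OAZ2, AMD1 and ODC1 overlapped with each other. In polysome RNA, OAZ1 stood alone at the top (385 ± 28.6), ahead of SRM (180 ± 24.1) and SMS (67.6 ± 3.64), followed by OAZ2 (16.5 ± 1.55), AZIN1 (10.96 ± 2.28) and SAT1 (8.98 ± 1.19). ODC1 (8.40 ± 2.96) and AMD1 (8.03 ± 1.05) came last, and the ranges of AZIN1, SAT1, ODC1 and AMD1 all overlapped. Per kilobase of the principal transcript, OAZ1 led in input RNA as well (642 ± 86.1 against 336 ± 32.8 for SRM), since much of its annotated exon length lies outside that transcript. On that scale OAZ2 was above AZIN1 in input RNA already (50.1 ± 2.17 against 23.5 ± 2.44). The input ranges of SAT1 and AZIN1 were then apart, as were those of OAZ2, AMD1 and ODC1, while SAT1 overlapped OAZ2 and AMD1 overlapped AZIN1. In polysome RNA on that scale, ODC1 (9.40 ± 3.31) came last, below AMD1 (16.4 ± 2.15) without overlap. There SAT1 (21.1 ± 2.79) was clear of AZIN1 (14.9 ± 3.11). The order and overlaps of these genes thus depended on the length used.

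The libraries labelled knockdown were then compared with those labelled control. Since FBL was level between them, this is a comparison of labels and not of FBL levels. In input RNA none of the 8 genes was called, as for all tested genes (0% called by edgeR, with 744 of 16503 at an unadjusted p under 0.05, ODC1 and OAZ1 among them). Of the 8, ODC1 had the largest difference, with a log2 fold change of -0.65 (SE 0.29, 95% interval -1.29 to -0.01, edgeR adjusted p = 1), both knockdown libraries below both control libraries. OAZ1 had 0.26 (SE 0.12, 95% interval 0.002 to 0.51, edgeR adjusted p = 1), both knockdown libraries above both control libraries. Such full separation was also seen for SRM and AMD1 below and for AZIN1 above, and over all tested genes for 20.3% below and 21.1% above. The other 6 had log2 fold changes from -0.19 for SRM to 0.27 for SAT1, and the median of the 8 was -0.02 against 0.00 for all tested genes. DESeq2 called 76 genes and limma-voom 3, none of them among the 8.

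In polysome RNA again none of the 8 genes was called, where 0.879% of all tested genes were (edgeR), 0.248% higher and 0.63% lower. ODC1 had a log2 fold change of -0.65 (SE 0.29, 95% interval -1.29 to -0.002, edgeR adjusted p = 0.275), the same size as in input RNA. SRM had -0.30 (SE 0.11, 95% interval -0.54 to -0.06, edgeR adjusted p = 0.194), AZIN1 -0.24 (SE 0.20), OAZ2 -0.22 (SE 0.11), AMD1 -0.21 (SE 0.14), SMS -0.10 (SE 0.11), OAZ1 -0.10 (SE 0.12) and SAT1 0.25 (SE 0.19). The 8 genes had a median of -0.21 and all tested genes of -0.06. Both knockdown libraries lay below both control libraries for ODC1, SRM, OAZ2 and SMS, which 23.6% of all tested genes did, and above for SAT1, which 15.4% did. DESeq2 called 1203 genes and limma-voom 297, again without any of the 8. Leaving out polysome knockdown 1 gave calls for ODC1 (-1.17, SE 0.27, edgeR adjusted p = 0.027) and AZIN1 (-0.64, SE 0.15, edgeR adjusted p = 0.031), with polysome knockdown 2 then the lone library of its group. Without it, those values rest on the library with the fewest counts, whose spread is assumed to be like that of the other groups.

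**Figure D4:**
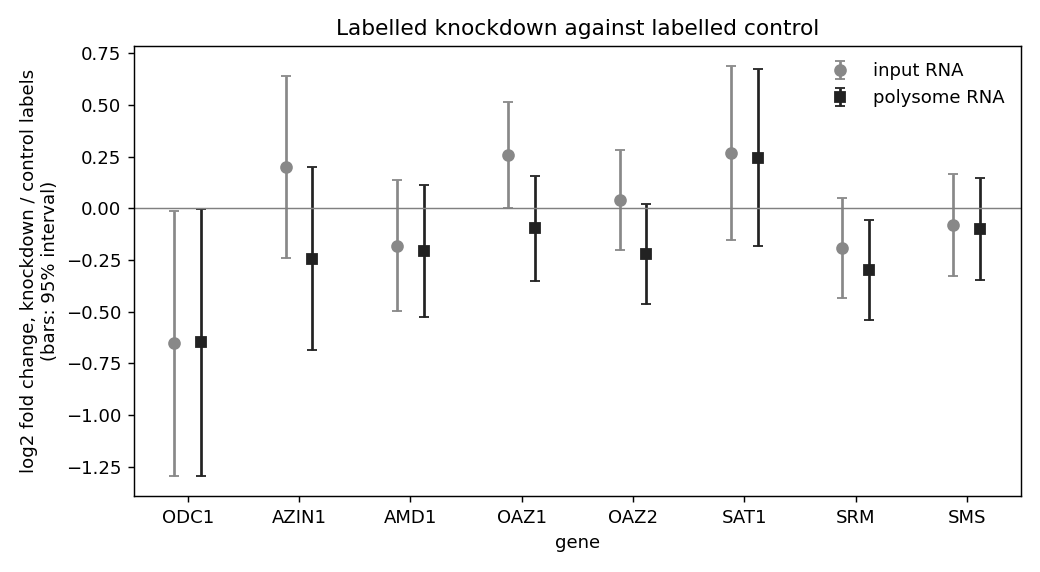
Log2 fold change of the libraries labelled knockdown over those labelled control (y axis) for the 8 genes (x axis) in input RNA (grey circles) and polysome RNA (black squares), with 95% intervals from the edgeR fit as bars. The ODC1 points lie at -0.65 in both fractions with intervals reaching to about 0, and no gene was called in either fraction.

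The difference between the polysome change and the input change measures whether polysome association went with the label. None of the 8 genes was called, and neither was any other tested gene (0% by edgeR, with 1046 of 16503 at an unadjusted p under 0.05 but none of the 8). DESeq2 called 10 genes and limma-voom 0, and none of the 8 was among them. OAZ1 had a log2 difference of -0.35 (SE 0.16, 95% interval -0.71 to 0.01, edgeR adjusted p = 0.773), AZIN1 of -0.44 (SE 0.28, 95% interval -1.07 to 0.18, edgeR adjusted p = 0.787) and OAZ2 of -0.26 (SE 0.15, 95% interval -0.61 to 0.08, edgeR adjusted p = 0.781). The other 5 lay between -0.11 for SRM and 0.00 for ODC1. All 8 intervals held -0.32, the polysome to input fold change of SRM, so none of these genes was shown to be alike under both labels. With the lysate as a block OAZ1 had -0.35 (SE 0.10, edgeR adjusted p = 0.179), and again none was called. This comparison shares its libraries with those by label, and the values are not separate evidence.

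Library numbers moved with several of the genes. ODC1, AZIN1, SRM and SMS were lower in number 2 than in number 1 in 4 of 4 groups, as 12.1% of all tested genes were, and OAZ2 was higher in 4 of 4, as 9.76% were. FBL was also lower in number 2 in 4 of 4 groups. AMD1 was lower in 3 of 4, and OAZ1 and SAT1 were higher in 3 of 4. The number is no treatment in the labels. Whether libraries and labels were exchanged, so that the number rather than the label marks the hairpin against FBL, is not known from the sources and was not tested, and no library was regrouped. In a fit with the number as a block SRM was called lower in polysome RNA labelled knockdown (-0.30, SE 0.07, edgeR adjusted p = 0.033).

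Genes around the pathway were read from 6 lists holding 51 genes, of which 44 were tested. In polysome against input RNA (mean of labels) 17 were higher and 9 lower, with a median log2 fold change of 0.18, against -0.22 for all tested genes and 0.10 for those averaging 10 CPM or more. Over all tested genes 20% were higher and 22.8% lower, and over those averaging 10 CPM or more 38.1% and 27.7%. Between the labels 0 of the 44 were called in input RNA, in polysome RNA or for the difference between them. With the centred GC and length offsets 12 were higher and 4 lower in polysome RNA, in a fit that called 14.3% of all tested genes higher and 13.7% lower. The counts of each list below are to be read against the same shares of all genes.

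Of the 5 genes of hypusine formation and eIF5A, 4 were higher in polysome RNA and none lower. DOHH and DHPS, the enzymes that make hypusine from spermidine, went from 112.1 ± 15.0 to 280.7 ± 71.5 CPM (log2 fold change 1.31, SE 0.11) and from 53.6 ± 1.35 to 98.3 ± 14.1 CPM (0.87, SE 0.10; SD, n = 4 each). EIF5A, the protein so modified, went from 887.9 ± 34.5 to 1311 ± 89.0 CPM (0.56, SE 0.06). EIF5AL1 (0.74, SE 0.25) is a near-identical copy of EIF5A, so its count is uncertain, and its call was lost on leaving out input control 1, input knockdown 1, input knockdown 2, polysome control 2 or polysome knockdown 1. These 4 had edgeR adjusted p from 1.1e-05 to 0.035.

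Of 9 tested genes of ornithine and arginine supply, 3 were higher and 1 lower. The pyrroline-5-carboxylate reductases PYCR3 (52.6 ± 7.10 to 127 ± 24.3 CPM, log2 fold change 1.27, SE 0.10) and PYCR1 (26.2 ± 4.84 to 60.1 ± 9.10 CPM, 1.20, SE 0.11) were among those higher. OAT, the ornithine aminotransferase, went from 13.2 ± 1.89 to 6.35 ± 1.08 CPM (-1.05, SE 0.21). Of 9 tested genes of polyamine breakdown, export and transport, 5 were higher and 1 lower. Spermine oxidase SMOX (0.79, SE 0.13), the SAT1 relative SAT2 (0.81, SE 0.15) and the lysosomal polyamine exporter ATP13A2 (0.78, SE 0.10) were higher, and the polyamine transport ATPase ATP13A3 was lower (31.7 ± 3.54 to 14.6 ± 1.29 CPM, -1.12, SE 0.14). SAT1 and SAT2, both named as acetyltransferases, thus lay on opposite sides. The genes named had edgeR adjusted p from 7.7e-06 to 0.0026, and with the centred offsets the calls of OAT, SMOX and ATP13A2 were lost.

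Of 13 tested genes of methionine, S-adenosylmethionine and methylthioadenosine metabolism, 3 were higher and 5 lower. AHCY, which hydrolyses S-adenosylhomocysteine (0.62, SE 0.09), was among those higher. MTAP, which recovers the methylthioadenosine that SRM and SMS release (-0.60, SE 0.11), and methionine synthase reductase MTRR (-0.51, SE 0.13) were among those lower. These 3 calls, at edgeR adjusted p from 2.4e-04 to 0.0091, were lost with the centred offsets. Of 6 genes of ODC1 transcription and turnover, 2 were higher and 2 lower. MYC, a transcription factor known to drive ODC1, went from 58.0 ± 6.28 to 25.2 ± 5.52 CPM (-1.20, SE 0.15), and its partner MAX had -0.51 (SE 0.13). The proteasome ubiquitin receptor PSMD4 (376.9 ± 31.4 to 719.7 ± 68.6 CPM, 0.93, SE 0.06) and NQO1, an oxidoreductase reported to protect ornithine decarboxylase from decay (0.77, SE 0.10), were higher. These 4 had edgeR adjusted p from 2.7e-06 to 0.0086 and were called with the centred offsets too.

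The profiles of the 8 genes over the 8 libraries were compared as the root mean square difference of log2 CPM, centred per gene, against 8158 other genes averaging 10 CPM or more. The genes nearest to AMD1 were QRSL1 (0.04), MTAP (0.06) and STT3B (0.07), where the median gene lay at 0.47. Nearest to OAZ1 were MVP (0.06), FLYWCH2 (0.07) and RBM38 (0.08), to OAZ2 DLGAP4, RASSF4 and AP2B1 (0.06 each), to SRM EIF4B, ETS2 and PSMD1 (0.06 each) and to SMS VAPB, ST13 and G3BP1 (0.05 each). ODC1 and SAT1 had no gene as close: the nearest were SLC25A44 (0.12), ZNF559 (0.13) and LIN52 (0.14) for ODC1 and TRIM5 (0.11), SDC2 (0.13) and SPTSSA (0.14) for SAT1. AZIN1 had PEX2, PTPN12 and FAM222B (0.09 each). Among the members themselves, the synthases SRM and SMS were closest (0.10), OAZ1 and OAZ2 lay 0.26 apart, and OAZ1 and SAT1 lay farthest apart (1.11).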

How the data were processed

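The files hold raw read counts per gene, not normalized, which the authors made with Trimmomatic 0.38, Bowtie2 and HTSeq 0.11.2 on GRCh38, per the submitters' processing notes. The sources used here give neither annotation release nor strand setting. Lines naming no gene (13.2% to 15.0% of reads) stayed out of library sizes and tests. Symbols, positions, GC content, lengths and sequences came from GENCODE v29, which held 58275 of 58395 identifiers.

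A quasi-likelihood F test in edgeR 4.0.16 (R 4.3.3, TMM scaling, filterByExpr) took the counts, with a term for each of 4 groups, all 8 libraries and 4 residual degrees of freedom. P-values were adjusted by Benjamini-Hochberg over 16503 genes and called under 0.05. CPM values are after TMM. The scripts were tested on simulated data. The 8 genes and the lists were chosen with earlier results of these data known. List genes named are the up to 4 per list with the largest called change and at least 10 CPM in the higher group, and for each member the 3 nearest profiles. Some genes that this rule picks are not reported here. Fewer cells with a transcript and less of it per cell cannot be told apart. Libraries of a group differed by more than sampling noise (chi-square per degree of freedom 23.6 to 51.4). Alternatives were RLE and upper quartile scaling, DESeq2 1.42.0, limma-voom (limma 3.58.1), other filters, each library left out, fits of the compared groups alone, blocks, and GC and length offsets. Same-lysate libraries were paired by the protocol, with deviations correlating at 0.31 (control) and 0.35 (knockdown). These values do not by themselves show a shared lysate. Same-numbered libraries of different labels correlated as well, at 0.47 in input and 0.18 in polysome RNA. Across labels libraries share only a number.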

Additional observations from a re-analysis of the deposited data

How the results depend on the processing

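OAZ1, OAZ2, SAT1 and SRM were called in 19 of 19 alternatives of polysome against input RNA (mean of labels), always in the direction reported, and AZIN1 in 16 and ODC1 in 1 likewise. AMD1 was called lower in 15 and higher in 2, and SMS lower in 9 and higher in 3. Leaving out 1 library moved the number of members called from 5 to between 3 and 5 in the libraries labelled knockdown and, in polysome RNA between the labels, from 0 to between 0 and 2. With a filter at a mean of 10 CPM, 7 members were called in the libraries labelled control, and this filter moved the median of genes with at least 10 CPM there by -0.15. The library number as a replicate block gave 1 member (SRM) between the labels in polysome RNA. In that comparison edgeR called 145 genes over all, and 0 to 1455 in the alternatives.

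Centred GC and length offsets called 4 members (mean of labels) and 2 (labelled knockdown). AMD1 then had 0.10 and SMS 0.21, and AMD1 had 0.06 and 0.13 in the labels control and knockdown. With the lysate as a replicate block as well, AMD1 had 0.10 and SMS 0.21 (called higher, edgeR adjusted p = 0.019), and AMD1 0.052 and 0.14 by label. The offsets as first planned, not centred, moved the median of genes with at least 10 CPM by 0.27. They gave 0.027 for AZIN1, 0.40 for AMD1, 0.51 for SMS, 0.23 for MTAP and 0.17 for MTRR, with AMD1 at 0.31 and 0.48 and SMS at 0.50 and 0.51 by label. With the lysate block they gave 0.015 for AZIN1, 0.39 for AMD1, 0.51 for SMS, 0.23 for MTAP and 0.17 for MTRR, with AMD1 at 0.30 and 0.49 and SMS at 0.50 and 0.51 by label. The cause of these changes was not tested.

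Same-numbered libraries of the labels also deviated together (0.47 in input, 0.18 in polysome RNA). The lysate block added the calls of AZIN1 and SRM in labelled control and changed no other member's call. With 2 libraries a group, differences between labels that lie inside the intervals given were not excluded.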
